A study of Homo sapiens with 10 samples.

Results

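The 10 genes DDIT4, SESN1, SESN2, SESN3, CASTOR1, DEPTOR, EIF4EBP1, FLCN, RRAGC and RRAGD, which restrain mTORC1 or report amino acids to it, were described in HEK293T cells given no, normal or excess cysteine. The 10 members were taken by symbol from the 78894 gene IDs of a normalized gene count table, and all 10 passed the filter on low values that left 29045 genes for testing. HEK293T is an established human embryonic kidney line that carries the SV40 large T antigen. The cells were kept for 24 h in 0X-Cys medium (cysteine-free, 2 libraries), 1X-Cys medium (complete, 4 libraries) or 10X-Cys medium (excess, 4 libraries), and all media contained methionine. The labels number the libraries as biological replicates of 1 cell line and do not say whether they came from separate experiments, so the p-values measure only the spread between these libraries. Poly(A)-selected RNA was measured, which gives transcript levels and not mTORC1 activity.

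mTORC1 is the kinase complex that promotes growth and protein synthesis at the lysosome when amino acids are plentiful. Amino acids reach it through the Rag GTPases, heterodimers of RRAGA or RRAGB with RRAGC or RRAGD, which GATOR1 switches off and GATOR2 protects. Sestrins and CASTOR1 bind GATOR2 and restrain it when leucine or arginine is scarce, folliculin (FLCN) acts on RRAGC and RRAGD, DDIT4 works through the TSC complex that switches off RHEB, DEPTOR binds mTOR itself, and the protein made from EIF4EBP1 holds back cap-dependent translation until mTORC1 phosphorylates it. DDIT4, SESN2 and EIF4EBP1 are known targets of ATF4, the transcription factor of the amino acid response, whereas RRAGC, RRAGD and FLCN are known targets of the MiT/TFE factors.

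To show the upstream sequence of these genes beside their levels, the bases before the RefSeq start (GRCh38.p14) were searched on both strands for TGATGNAA, the core of the amino acid response element, for CACGTG, the E-box within the element that MiT/TFE factors bind, and for TGACGTCA, the cAMP response element. Promoters were found for 7 of the 10 members, without DEPTOR, EIF4EBP1 and RRAGD. In the 250 bases before the start, CACGTG in RRAGC was the only match among the 7, and 6.49% of 27305 promoters held it there, against 3.19% for TGATGNAA and 1.77% for TGACGTCA. In 1000 bases, a length chosen after matches were seen, TGATGNAA was present in DDIT4, SESN2 and FLCN and in 13.3% of all promoters, CACGTG in CASTOR1, FLCN and RRAGC and in 16.3%, and TGACGTCA in none of the 7 and in 2.49%. SESN1 and SESN3 held none of the 3 motifs. The windows of 30 bases around the matches of the members that changed most, and of the folliculin and Rag genes, are given 5′ to 3′ on the gene's strand with the motif or its reverse complement in capitals.
DDIT4, plus strand, chr10:72272967-72272996, motif 946 bases before the start: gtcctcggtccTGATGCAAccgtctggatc
SESN2, plus strand, chr1:28259211-28259240, reverse complement 296 bases before the start: gtgaagtccctTTTCATCAcgcaaccctaa
FLCN, minus strand, chr17:17237615-17237644, reverse complement 465 bases before the start: gagaggacgggTTCCATCAgcaatttaata
FLCN, minus strand, chr17:17237670-17237699, E-box 520 bases before the start: cttctccgcgtCACGTGacggccgtctccc
RRAGC, minus strand, chr1:38859866-38859895, E-box 112 bases before the start: ggtgattccggCACGTGacggggcaccacc
In GENCODE release 44 the DDIT4 window lies in an exon of the unnamed gene ENSG00000289506, the RRAGC window in an intron of ENSG00000273637, and the SESN2 and FLCN windows between genes. These are matches of letters in fixed windows, and binding was not measured.

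The libraries held between 34836014 and 61654861 reads on genes. HEK293T markers were present in all 10 (PAX2 at 103 to 366 normalized counts, NEFM at 12200 to 15838), whereas PTPRC of leukocytes lay at 0 to 4.36, PECAM1 of endothelium at 4.56 to 13.6 and ALB of hepatocytes at 3.40 to 21.0. COL1A1, given as a fibroblast marker, stood at 605 to 1002. The mitochondrially encoded share of the values was 0.117% to 0.146% in excess medium against 4.51% to 5.71% in the other libraries, and its part in the results for excess medium was not tested. A normalized count here is the number of reads on a gene divided by the library's size factor.

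In cysteine-free against complete medium, 4 of the 10 members were called (adjusted p no higher than 0.01, limma), where 15.9% of all tested genes were called. DDIT4, EIF4EBP1 and SESN2 rose (7.39% of all genes rose) and FLCN fell (8.51% fell). In excess against complete medium 9 of the 10 were called, where 46.0% of all genes were: DDIT4, SESN1, SESN2, EIF4EBP1, FLCN, RRAGC and RRAGD rose (23.1% of genes rose), CASTOR1 and DEPTOR fell (22.9% fell), and SESN3 was not called. Each single call with excess is to be read against this high background. Both comparisons use the same 4 complete libraries, so their results are not independent. Cysteine-free and excess media were therefore also compared directly, which tests the difference between the effects of the 2 media. In that comparison 9 members were called against 48.0% of all genes, 4 higher in cysteine-free medium (23.6% of genes) and 5 lower (24.4%). The median log2 fold change of the members was 0.13 in cysteine-free and 0.26 in excess medium, beside 0.00 and 0.01 over all tested genes.

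DDIT4 (REDD1), a stress-induced brake that works through the TSC complex, had the largest rise of the members in cysteine-free medium. The gene (ENSG00000168209) lies at chr10:72273919-72276036 and shares no exon base with another gene. The motif in the first of the windows printed above lies 946 bases before its start. Its normalized counts were 6994 and 6976 in cysteine-free libraries, 1845, 1725, 1744 and 1600 in complete libraries, and 4241, 4074, 4578 and 4554 in excess libraries. The 3 groups did not overlap, with cysteine-free highest, excess between and complete lowest. The mean was 4.04-fold that of complete medium without cysteine (log2 fold change 2.02 ± 0.066 SE, adjusted p 1.43e-09) and 2.52-fold with excess (1.34 ± 0.053, adjusted p 2.53e-12). Between the media themselves it was 1.60-fold higher without cysteine than with excess (0.68 ± 0.047, adjusted p 4.87e-12).

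SESN2 (ENSG00000130766, chr1:28259518-28282491), a leucine-binding sestrin, rose in both media as well, but further with excess. Its counts were 13366 and 14465 without cysteine, 5588, 5056, 5674 and 5254 in complete medium, and 18378, 19200, 19338 and 19915 with excess. Each excess library was above each cysteine-free library, and each of these above all complete libraries. The level was 2.58-fold that of complete medium without cysteine (log2 fold change 1.37 ± 0.060, adjusted p 8.70e-09) and 3.56-fold with excess (1.83 ± 0.042, adjusted p 2.29e-15). The direct difference was -0.47 ± 0.039 (adjusted p 1.98e-10), so SESN2 and DDIT4 had opposite orders in the 2 media.

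SESN1 (ENSG00000080546, chr6:108984309-109094846), a sestrin known as a target of FOXO factors, had yet another order, lowest without cysteine and highest with excess. It stood at 1063 and 1069 in cysteine-free libraries, at 1484, 1434, 1106 and 1565 in complete libraries, and at 2165, 2264, 2099 and 2206 in excess libraries. The groups did not overlap, but complete library 3 lay close to the cysteine-free libraries and away from the other 3 complete libraries. SESN1 rose 1.56-fold with excess (log2 fold change 0.66 ± 0.082, adjusted p 2.88e-06). Without cysteine its log2 fold change of -0.38 ± 0.11 was not called (adjusted p 0.0232), and without complete library 3 it was -0.49 and called (adjusted p 3.83e-05). In the direct comparison the cysteine-free mean was 48.8% of the excess mean (log2 fold change -1.03 ± 0.052, adjusted p 1.62e-14). SESN1 shares 4.99% of its exon bases with ENSG00000271730 on the other strand, whose means of 130, 176 and 288 in cysteine-free, complete and excess medium had the same order.

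SESN3 (ENSG00000149212, chr11:95165513-95232541), the sestrin best known as a FOXO target, was called in none of the comparisons. Its counts were 1764 and 1570 without cysteine, 1926, 1952, 1887 and 1690 in complete medium, and 1844, 1862, 1734 and 1865 with excess. The ranges overlapped in all 3 media. The 95% interval of the log2 fold change ran from -0.33 to 0.01 without cysteine and from -0.14 to 0.09 with excess, which bounds a change in either direction without showing that there was none. In the direct comparison it was -0.13 (adjusted p 0.0453), and it was called with libraries scaled to equal totals (-0.21, adjusted p 0.00305) and without cysteine-free library 1 (-0.22, adjusted p 0.00953).

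The sestrins were then compared with each other per kilobase of exon, since their transcripts differ in length. SESN2 made up 80.8% ± 1.69 (SD, n = 4) of the summed sestrin density in complete medium, 93.0% ± 0.63 (SD, n = 2) without cysteine and 92.1% ± 0.32 (SD, n = 4) with excess. The share was 92.5% and 93.4% in the cysteine-free libraries, 80.7%, 79.3%, 83.2% and 80.2% in the complete libraries, and 91.8%, 91.9%, 92.5% and 92.3% in the excess libraries. Both altered media were thus above complete medium in every library. A 2-sided exact permutation test gave p = 0.0286 for excess against complete, the smallest value possible with 4 against 4, and p = 0.0667 for cysteine-free against complete, the smallest possible with 2 against 4. The altered media overlapped with each other (exact permutation p = 0.133). The summed density was 1926 ± 72.0 normalized counts per kb in complete medium, 4324 ± 212 without cysteine and 6021 ± 185 with excess.

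**Figure D1:**
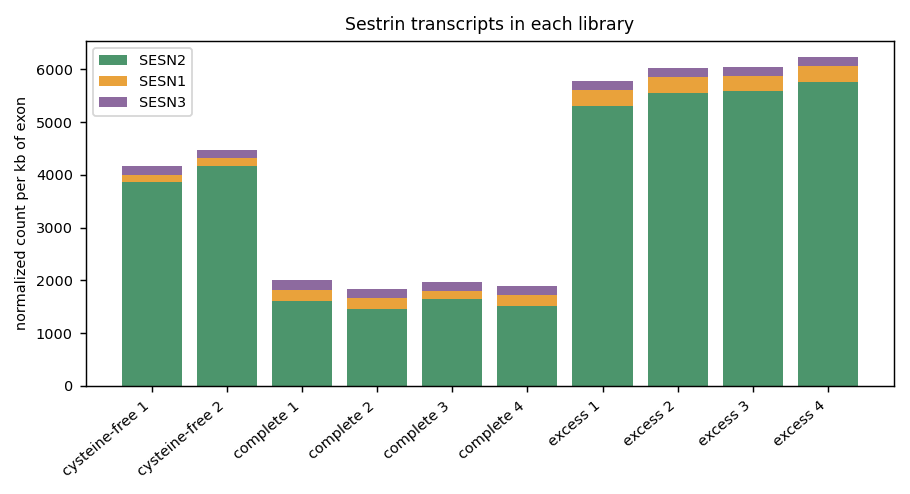
Normalized count per kb of merged exon for SESN2, SESN1 and SESN3, stacked from 0, with 1 bar for each of the 10 libraries. SESN2 makes up most of each bar, and the sum lies between 1842 and 2000 in complete, 4174 and 4474 in cysteine-free and 5780 and 6232 in excess libraries.

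CASTOR1 (ENSG00000239282, chr22:30285117-30289622), the cytosolic arginine sensor, fell with excess cysteine. It was at 178 and 169 normalized counts in cysteine-free libraries, 160, 140, 133 and 144 in complete libraries, and 79.0, 78.2, 52.9 and 116 in excess libraries. All excess libraries were below all complete libraries, and both cysteine-free libraries were above them. The excess mean was 56.5% of that in complete medium (log2 fold change -0.87 ± 0.18, adjusted p 7.05e-04). The cysteine-free change of 0.27 ± 0.15 was not called (adjusted p 0.207), and the direct difference was 1.13 ± 0.21 (adjusted p 5.18e-05). CASTOR1 shares 46.0% of its exon bases with ENSG00000248751 on the same strand, whose mean was 383 without cysteine, 319 in complete medium and 230 with excess, so the levels of the 2 genes cannot be told apart with certainty.

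DEPTOR (ENSG00000155792), which binds and inhibits mTOR, went the same way as CASTOR1 at a similarly low level. Its counts were 276 and 262 without cysteine, 210, 226, 196 and 257 in complete medium, and 125, 192, 114 and 98.6 with excess. The groups did not overlap, although excess library 2 lay just under the lowest complete library. With excess the mean was 59.7% of that in complete medium (log2 fold change -0.78 ± 0.17, adjusted p 6.85e-04). Without cysteine the change of 0.28 ± 0.14 was not called (adjusted p 0.153), and the direct difference was 1.06 ± 0.18 (adjusted p 1.48e-05). DEPTOR shares 9.59% of its exon bases with the antisense gene DEPTOR-AS1, which had means of 23.8, 16.6 and 9.71 in cysteine-free, complete and excess medium.

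EIF4EBP1 (ENSG00000187840), the translational repressor that mTORC1 phosphorylates, followed the order of DDIT4. The counts were 9708 and 10448 without cysteine, 3833, 3328, 3743 and 3257 in complete medium, and 6148, 6289, 6738 and 6797 with excess. Again the 3 groups were apart, with complete medium lowest. The mean was 2.85-fold that of complete medium without cysteine (log2 fold change 1.51 ± 0.072, adjusted p 1.78e-08) and 1.83-fold with excess (0.88 ± 0.055, adjusted p 6.75e-10). Without cysteine it was 1.55-fold the excess mean (0.63 ± 0.045, adjusted p 9.23e-12).

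FLCN (ENSG00000154803, chr17:17212212-17237188), the folliculin gene whose product activates RRAGC and RRAGD by driving their GTP hydrolysis, was the only member called in opposite directions. Its counts were 1257 and 1235 without cysteine, 1570, 1543, 1616 and 1635 in complete medium, and 1808, 1773, 1972 and 2023 with excess. The groups did not overlap, and the order was cysteine-free, complete, excess. Without cysteine the mean was 78.3% of that in complete medium (log2 fold change -0.35 ± 0.066, adjusted p 0.00158), and with excess it was 119% (0.25 ± 0.054, adjusted p 7.50e-04). The direct difference was -0.60 ± 0.058 (adjusted p 2.90e-09). The cysteine-free call was lost without either cysteine-free library (-0.37 with adjusted p 0.0252 without library 1, -0.34 with adjusted p 0.0348 without library 2). FLCN shares 11.9% of its exon bases with ENSG00000264187 on the same strand. The means of that gene were 681, 823 and 767 in cysteine-free, complete and excess medium. The levels of FLCN and ENSG00000264187 therefore cannot be told apart with certainty.

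RRAGC (ENSG00000116954, chr1:38838198-38859772), a Rag GTPase with an E-box in the shorter window before its start, rose with excess and was not called without cysteine. It stood at 1019 and 961 in cysteine-free libraries, 987, 1017, 996 and 1005 in complete libraries, and 1240, 1258, 1214 and 1129 in excess libraries. The cysteine-free and complete libraries overlapped, and all excess libraries were above both. The excess mean was 1.21-fold that of complete medium (log2 fold change 0.27 ± 0.054, adjusted p 3.84e-04). The interval of the cysteine-free change was -0.17 to 0.14, and the direct difference was -0.29 ± 0.062 (adjusted p 2.79e-04), a call lost without cysteine-free library 2 (-0.25, adjusted p 0.0104). RRAGC shares 23.1% of its exon bases with ENSG00000273637 on the same strand. That gene had means of 972, 1028 and 924 in cysteine-free, complete and excess medium. The levels of RRAGC and ENSG00000273637 therefore cannot be told apart with certainty.

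RRAGD (ENSG00000025039, chr6:89364616-89412273), the other partner in Rag heterodimers, had counts of 810 and 794 without cysteine, 926, 888, 869 and 858 in complete medium, and 981, 1094, 1016 and 1062 with excess. The 3 groups did not overlap. The rise with excess was 1.17-fold (log2 fold change 0.23 ± 0.058, adjusted p 0.00277), and it was no longer called without excess library 2 (0.20, adjusted p 0.0131) or 4 (0.22, adjusted p 0.0113). The cysteine-free change of -0.14 ± 0.078 was not called (adjusted p 0.197), and the direct difference was -0.37 ± 0.064 (adjusted p 2.16e-05). Per kilobase, the ratio of RRAGD to RRAGC was 0.888 ± 0.037 (SD, n = 4) in complete medium, 0.814 ± 0.023 (SD, n = 2) without cysteine and 0.863 ± 0.063 (SD, n = 4) with excess. The ratios in the cysteine-free libraries (0.798 and 0.830) were below those in all complete libraries (0.857 to 0.942). A 2-sided exact permutation test of these gave p = 0.0667, the smallest value possible with 2 against 4. It therefore could not pass 0.05 and does not decide whether the ratio differed. With excess the ratios of 0.794 to 0.944 overlapped those in complete medium (2-sided exact permutation p = 0.486).

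**Figure D2:**
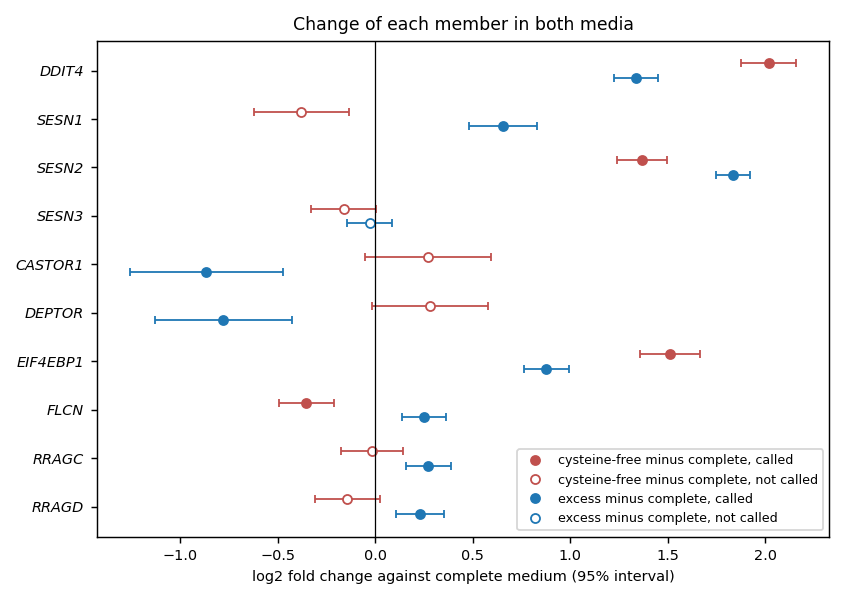
Log2 fold changes of the 10 members against complete medium in cysteine-free (red) and excess medium (blue), with 95% intervals from limma; filled points passed an adjusted p of 0.01. DDIT4, SESN2 and EIF4EBP1 are called to the right of 0 in both media, FLCN is called on opposite sides, and SESN3 is called in neither.

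The members also differed in level. Per kilobase of exon, EIF4EBP1 was highest in every medium, at 4023 ± 329 (SD, n = 4) normalized counts per kb in complete medium, followed by SESN2 at 1558 ± 83.3 and DDIT4 at 816 ± 47.6. These 3 were apart from each other and from the rest in all 3 media. RRAGC at 196, SESN1 at 192, SESN3 at 176 and RRAGD at 174 followed in complete medium, each overlapping with the next in its range, then FLCN at 163, DEPTOR at 84.6 and CASTOR1 at 52.5, each apart from the next. With excess, SESN1 moved up to the fourth place at 300.1 ± 9.53, apart from RRAGC at 237, while DEPTOR at 50.5 and CASTOR1 at 29.7 overlapped. Without cysteine, SESN1 at 146 was seventh, and SESN3 and RRAGD overlapped at 158 and 157. The lengths include exon bases shared with another gene on the same strand, 46.0% in CASTOR1, 23.1% in RRAGC and 11.9% in FLCN. Reads over several genes were discarded per the study's methods, so these 3 densities may be understated. The places of CASTOR1, RRAGC and FLCN in the order are therefore uncertain.

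The genes most like each member over the 10 libraries were sought by Pearson's r of log2 values among 12564 protein-coding genes with a symbol and a mean of at least 100. The libraries fall into 3 media, which these coefficients mainly reflect. PHGDH, the first enzyme of serine synthesis, was nearest to DDIT4 (r = 0.994), and EIF4EBP1 was next (r = 0.992). EIF4EBP1 in turn was nearest to DDIT4 and then to MTHFD1L, the mitochondrial formate-producing enzyme (r = 0.991). CARS1, the cysteinyl-tRNA synthetase, and PDCD4, an inhibitor of translation initiation, stood nearest to SESN2 (both r = 0.996). For SESN1 they were DRAM1, a lysosomal protein that promotes autophagy, and ALCAM (both r = 0.993). FLCN was nearest to SSR4 (r = 0.989) and TRAF4 (r = 0.982), RRAGC to ZNF585A (r = 0.985) and ZNF559 (r = 0.982), and RRAGD to FRS2 (r = 0.983) and MED13 (r = 0.982). The lower members had DCTN6 (r = 0.965) and PI4KA (r = 0.953) nearest to CASTOR1 and BORCS5 (r = 0.977) and ZNF827 (r = 0.970) nearest to DEPTOR, and the weakest likeness was that of SESN3 to UBAP2 (r = 0.912) and PLXNC1 (r = 0.908).

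To place the members in their pathway, 50 further genes in 11 lists were described in the same fits, of which 49 were tested and TFEC was too low. Without cysteine 7 rose, 5 fell and 37 were not called, so 24.5% were called beside 15.9% of all tested genes. With excess 12 rose, 16 fell and 21 were not called, which is 57.1% beside 46.0% of all genes. Of the 12 calls without cysteine, 10 were lost under at least 1 alternative, among them KPTN with equal totals, and ATF4, EIF4E, FOXO3, MITF, MLST8, RRAGA, SEH1L, SLC38A9 and TSC2 only when a library was left out, while those of LAMTOR4 and LARS1 held in all alternatives. Leaving out a cysteine-free library (for MLST8 only library 2) was enough to lose each of the 10, with adjusted p from 0.0112 to 0.120. With excess 7 of 28 calls were lost under at least 1 alternative of any kind, and in the direct comparison 11 of 27. Conversely, 5, 8 and 6 genes not called in the 3 comparisons were called under an alternative at the same threshold. The median log2 fold change of the 49 was -0.02 and -0.01 in these media.

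Of the parts that carry the amino acid signal, none of the 3 GATOR1 subunits (DEPDC5, NPRL2, NPRL3) was called by limma in either medium, with log2 fold changes from -0.03 to 0.06 without cysteine and from -0.05 to 0.00 with excess. In GATOR2, to which sestrins and CASTOR1 bind, 1 of 5 subunits fell without cysteine and 2 with excess. SEH1L, also a nuclear pore protein, was among them in both (-0.42, adjusted p 6.00e-04, and -0.57, adjusted p 6.08e-08). In KICSTOR, which tethers GATOR1 to the lysosome, 1 of 4 fell without cysteine and 2 with excess. The counts of GATOR2 and KICSTOR stand beside 8.51% of all tested genes that fell without cysteine and 22.9% with excess. KPTN fell in both (-0.53 and -0.33), but neither was called with equal totals (adjusted p 0.0125 and 0.0612). With excess its libraries overlapped those in complete medium, and the call was also lost with quantile normalization (adjusted p 0.0105). The same call was lost when any single library except complete library 3 was left out. KICS2 fell with excess (-0.63, adjusted p 6.78e-06) while its 0.27 without cysteine was not called.

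The Rag-Ragulator list, which holds the partners of RRAGC and RRAGD, had 1 of 8 higher and 2 lower without cysteine, and 2 higher and 4 lower with excess. Of all tested genes, 7.39% were higher and 8.51% lower without cysteine, and 23.1% and 22.9% with excess. LAMTOR4, a subunit of the lysosomal Ragulator scaffold, fell in both (-0.52, adjusted p 1.07e-04, and -0.90, adjusted p 2.75e-10). LAMTOR1 (-0.54) and LAMTOR2 (-0.57) fell with excess, as did RRAGA (-0.48), whereas RRAGB rose (0.30, a call lost without complete library 2 and without excess library 2, 3 or 4, adjusted p up to 0.0171). The Rag genes therefore did not move together in excess medium, where RRAGB, RRAGC and RRAGD were called higher and RRAGA lower. SLC38A9, the lysosomal arginine sensor, rose in both media (0.38, adjusted p 0.00546, and 0.31, adjusted p 4.53e-04).

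Among partners of the other members, FNIP1, which binds folliculin, rose with excess (0.65, adjusted p 3.71e-08) and was not called without cysteine (0.08), and FNIP2 was called in neither (-0.08 and 0.04). Of the other amino acid sensors, LARS1, the leucyl-tRNA synthetase, rose in both media (0.44 and 0.36), BMT2, the S-adenosylmethionine sensor also named SAMTOR, rose with excess (0.60, adjusted p 5.49e-06) and was not called without cysteine (-0.15), and CASTOR2, which has near-identical copies and is uncertain, was called in neither (-0.24 and 0.02), except without complete library 3 in cysteine-free medium (-0.32, adjusted p 0.00714). In the TSC-RHEB list, through which DDIT4 acts, TSC2 rose in both (0.29 and 0.16) and TBC1D7 fell with excess (-0.51, adjusted p 1.13e-05). Of the mTORC1 core, MLST8 rose without cysteine (0.41, adjusted p 3.36e-04) and fell with excess (-0.31, adjusted p 2.26e-05). RPTOR fell with excess (-0.28), a call lost with equal totals (-0.17). MTOR was not called in either medium with the deposited scaling. It was called higher with excess when libraries were scaled to equal totals (0.11, adjusted p 0.00537).

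Downstream of mTORC1, 1 of 8 targets and effectors fell and none rose without cysteine, and 3 rose and 3 fell with excess. The shares over all tested genes were 8.51% falling and 7.39% rising without cysteine, and 23.1% rising and 22.9% falling with excess. EIF4E, the cap-binding factor that the EIF4EBP1 protein holds, fell in both media (-0.40, adjusted p 6.61e-04, and -0.56, adjusted p 1.05e-07), opposite to EIF4EBP1. EIF4EBP2, the related repressor, fell with excess (-0.39) and was not called without cysteine (0.14). ULK1, the kinase that starts autophagy, rose with excess (0.65, adjusted p 4.30e-08) and was not called without cysteine (0.14), and DDIT4L, the paralog of DDIT4, was called in neither. Among the transcription factors known to act on the members, ATF4 rose in both media (0.24, adjusted p 0.00530, and 0.47, adjusted p 2.28e-08), and MITF did too (0.48 and 0.41). TFE3 rose with excess (0.64, adjusted p 1.42e-08) and was not called without cysteine (0.05). FOXO3 rose without cysteine (0.63, adjusted p 2.98e-04). With excess FOXO3 was not called (0.21, adjusted p 0.0162), but alternatives called it higher. These included equal totals (0.32, adjusted p 8.07e-04), the replicate block (0.21, adjusted p 0.00879) and the fit without complete library 3 (0.29, adjusted p 1.02e-04). TFEB was called in neither medium (-0.33 and 0.18). HIF1A fell with excess (-0.16, adjusted p 0.00403) and was not called without cysteine (-0.12). Its call with excess was lost with equal totals (-0.06, adjusted p 0.229) and with quantile normalization (-0.11, adjusted p 0.0284). Leaving out complete library 1 or 2, or excess library 1 or 3, also lost that call. FOXO1 was not called in either medium in the main limma fit (-0.21 and -0.22). With excess it was called by DESeq2 (-0.23, adjusted p 0.00506). It was also called there by limma with all 3 groups in one fit (adjusted p 0.00849) and without complete library 3 (-0.27, adjusted p 0.00155). These are transcript levels, and the nuclear entry and translation through which these factors are mainly controlled were not measured.

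Compared directly, 15 of the 49 pathway genes were higher without cysteine than with excess, 12 were lower and 22 were not called, beside 4, 5 and 1 of the members; the 55.1% called stood beside 48.0% of all genes. Higher without cysteine were KICS2 (0.90, adjusted p 2.53e-08), MLST8 (0.72, adjusted p 1.59e-12), LAMTOR2 (0.72, adjusted p 8.02e-09), EIF4EBP2 (0.53, adjusted p 1.95e-11), FOXO3 (0.42, adjusted p 6.67e-09) and TBC1D7 (0.30, adjusted p 0.00220; 0.0212 with equal totals), as DDIT4, EIF4EBP1, CASTOR1 and DEPTOR were. BMT2 (-0.75, adjusted p 1.20e-08), TFE3 (-0.59, adjusted p 1.56e-10) and MIOS of GATOR2 (-0.25, adjusted p 0.00176) were lower without cysteine, as the sestrins SESN1 and SESN2 and the genes FLCN, RRAGC and RRAGD were. FNIP1 (-0.57), TFEB (-0.51), CASTOR2 (-0.26) and ATF4 (-0.23) were also called lower, while FNIP2, LARS1, MITF, FOXO1 and HIF1A were not called (-0.12 to 0.08). With equal totals FNIP2 was called lower (-0.20, adjusted p 0.00855). The calls of MIOS and TFEB were lost without cysteine-free library 1 (-0.14 and -0.40), and that of CASTOR2 without cysteine-free library 2 (-0.23). The call of TBC1D7 was lost without cysteine-free library 1 (0.30) and without library 2 (0.31). It was also lost with the replicate block (0.27, adjusted p 0.0179).

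**Figure D3:**
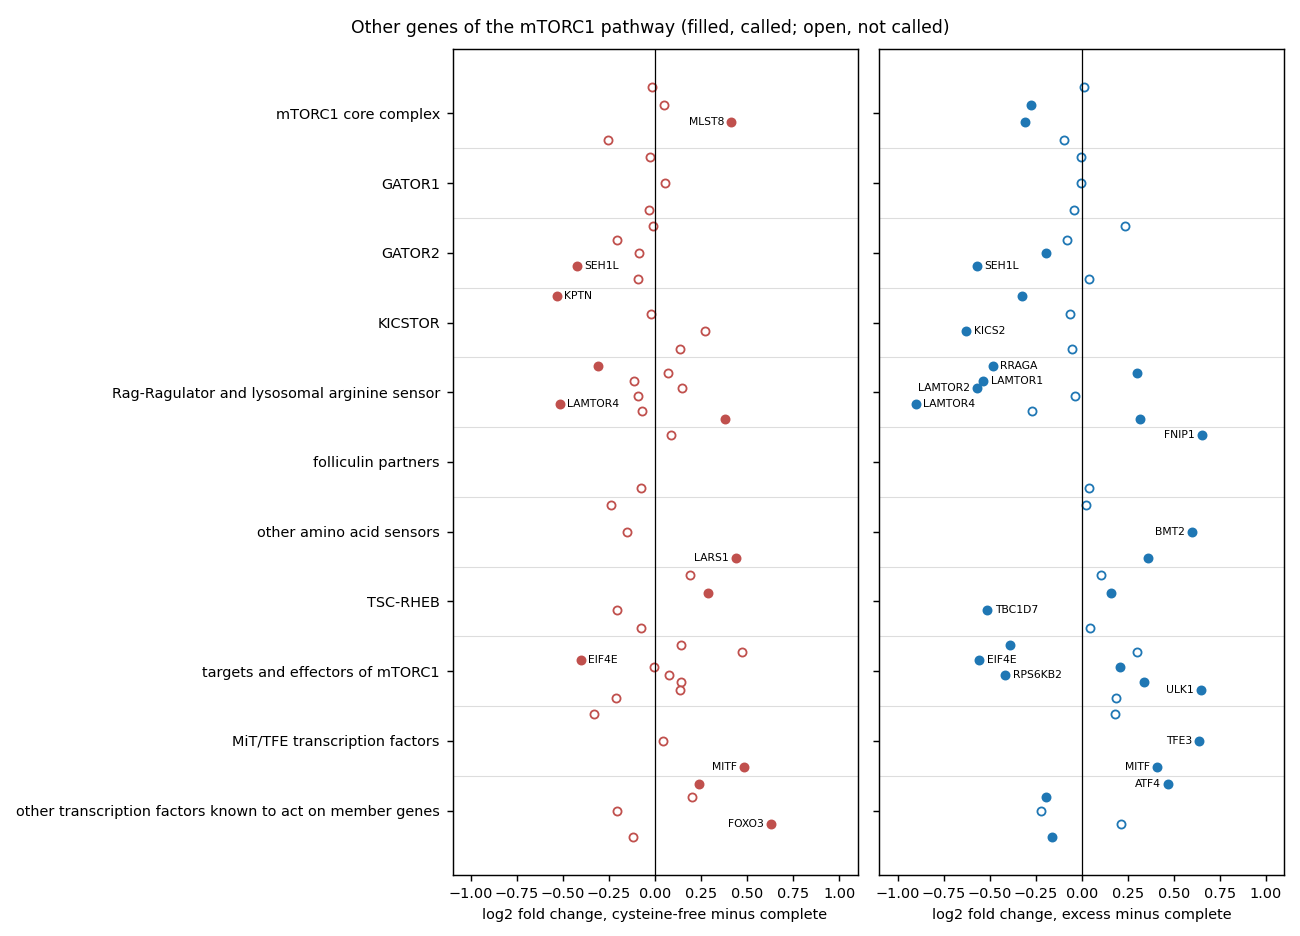
Log2 fold changes against complete medium of 49 other genes of the mTORC1 pathway by list, without cysteine (left, red) and with excess (right, blue); filled points passed an adjusted p of 0.01, and called genes beyond 0.4 in size are named. The largest fall is that of LAMTOR4 with excess (-0.90), and the GATOR1 subunits lie near 0 in both media.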

How the data were processed

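The 1 table the authors deposited holds signal values (normalized counts): per the labels and the study's methods, reads were aligned with STAR 2.7.10b to GRCh38, counted on Ensembl genes and divided by the DESeq2 size factor of the library. The study's methods name featureCounts and discard reads over several genes, the processing notes name HTSeq, and the Ensembl release is not given in the sources used here. All deposited values were whole multiples of 1 read within 0.01 reads in each library, so reads were recovered. Of 78894 gene IDs, 42165 had a symbol in GENCODE release 44, from which merged exon lengths were taken.

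The filter kept genes that reached 10 in 3 or more of the 10 libraries. Log2(value + 1) was fitted with limma 3.58.1 (lmFit, eBayes with trend) in R 4.3.3, each comparison with only its groups, 2-sided, with Benjamini-Hochberg adjustment over 29045 genes, and the threshold for a call was an adjusted p of 0.01. On this scale the changes of low genes are understated. The procedure was tested on simulated data in which far fewer genes changed than were called here. That test therefore does not cover comparisons in which 46.0% or 48.0% of genes were called. Ratios within a library were tested by exact permutation over libraries. edgeR 4.0.16 and DESeq2 1.42.0 were run on recovered reads as alternatives, with other pseudocounts, filters, scalings, thresholds, a replicate block and each library left out. Named were all members and, from each pathway list, the called gene with the largest change, with others named after their values were seen; 1 listed gene is not reported here. The deposited table does not have the number of replicates that the study's legend gives for complete and cysteine-free media, and all its libraries were used. Members and lists were chosen with earlier results of these data known. Replicates differed by more than counting noise (chi-square per degree of freedom 3.53 to 14.7). The depth was 34836014 to 61654861 reads per library, so the number of libraries limits the precision.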

Additional observations from a re-analysis of the deposited data

Results flagged for a closer look

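The effects of the 2 media differed for 9 of the 10 members when cysteine-free and excess libraries were compared directly (limma, adjusted p of 0.01 or less). In the same comparison 48.0% of all tested genes were called. On the log2 scale, the cysteine-free effect was above the excess effect by 0.68 for DDIT4, 0.63 for EIF4EBP1, 1.13 for CASTOR1 and 1.06 for DEPTOR. The difference was -0.47 for SESN2, -1.03 for SESN1, -0.60 for FLCN, -0.29 for RRAGC and -0.37 for RRAGD. DDIT4 and SESN2 thus rose in both media with opposite orders, and every cysteine-free library was above every excess library for DDIT4 and below for SESN2.

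In SESN3, excess library 3 stood apart at 1734 normalized counts against 1844 to 1865 in the other 3, a gap of 0.841 of the group's range. This was 1 of 24 groups examined in this way, where chance gives about 1.2.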

How the results depend on the processing

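Of 470 values tried for single members, 457 kept their side of the threshold, 13 changed their call and no called value changed direction. The 13 belong to SESN1 and FLCN without cysteine, RRAGD with excess, and SESN3 and RRAGC in the direct comparison. SESN1 in cysteine-free medium was also called at an adjusted p of 0.05, with all 3 groups in one fit (adjusted p 0.00500), by DESeq2 (-0.39, adjusted p 0.00437) and with the replicate block (-0.45, adjusted p 1.54e-06). The number of genes called in cysteine-free medium was 4618, 7987 at an adjusted p of 0.05, and between 978 and 6300 with 1 library left out; leaving out a cysteine-free library leaves 1, assumed to vary like the others. The replicate numbers did not pair the libraries (correlations of deviations from -0.03 to 0.04), and the replicate block gave 6518, 13392 and 12503 genes in the 3 comparisons and 5, 9 and 9 members, SESN1 being the addition. Scaling to equal totals raised the share of higher calls in excess medium from 50.3% to 61.8% and the median of all genes from 0.01 to 0.12, with the same counts of 7 members higher and 2 lower. The number of libraries, 2 without cysteine, limits calls of small changes such as that of RRAGD.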
